A study of Caenorhabditis elegans with 2 samples.

Results

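The 8 genes described here encode the main tubulins and actins of *Caenorhabditis elegans*: the α-tubulins *tba-1* and *tba-2*, the β-tubulins *tbb-1* and *tbb-2*, and the actins *act-1*, *act-2*, *act-3* and *act-4*. They were taken by name from the WBcel235 annotation and are 8 of its 19973 protein-coding genes on the nuclear chromosomes. Every peak or candidate peak with a summit between 2000 bp upstream of a gene's 5′ end and its 3′ end was assigned to that gene, which gave 41 regions among the 65474 of the pooled ranked list. Binding of LIN-29 was measured by ChIP-seq with an antibody against GFP in whole L4 larvae at 49 hours, synchronised by L1 starvation after bleaching. All animals were of strain RW12227, in which CRISPR placed a TY1::EGFP::3xFLAG tag in the native *lin-29* gene, and the labels number the samples as biological replicates 1 and 2. No untagged strain, input or other control was analysed here, and because whole animals were used, the tissue in which a region was bound cannot be told from these lists.

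α- and β-tubulin form the heterodimers from which microtubules are built, and actin polymerises into the filaments of muscle and of the cell cortex. *tba-1*, *tba-2*, *tbb-1* and *tbb-2* supply most of the tubulin of dividing embryonic cells and are broadly expressed. *act-1*, *act-2* and *act-3* lie in a cluster and, with *act-4*, encode nearly identical proteins. LIN-29 is a zinc finger transcription factor that acts last in the heterochronic pathway, which times larval development, and is best known for its role in epidermal cells as the animal becomes adult.

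Candidates were present at all 8 genes, as at 82.0% of all protein-coding genes in the pooled list, but thresholded peaks, with an irreproducible discovery rate (IDR) of at most 0.01, were few. The IDR grades how well a peak's rank repeats between a pair of inputs, and low values mean good agreement. In the pooled thresholded list, overlapping peaks were merged into sites, and 2 of the 8 genes, *tba-1* and *tba-2*, had a site, against 4.61% of all protein-coding genes. The conservative list had sites at 3 of the 8, *act-3* being added, against 4.39%. Replicate 1's own list had a site at 1 of the 8, *tba-1*, against 2.94%. Replicate 2's own list had sites at 3 of the 8, *tba-1*, *tba-2* and *act-3*, against 2.22%. Neither β-tubulin gene had a site in any of these lists, and neither did *act-1*, *act-2* or *act-4*. No test was made of these counts.

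**Figure D1:**
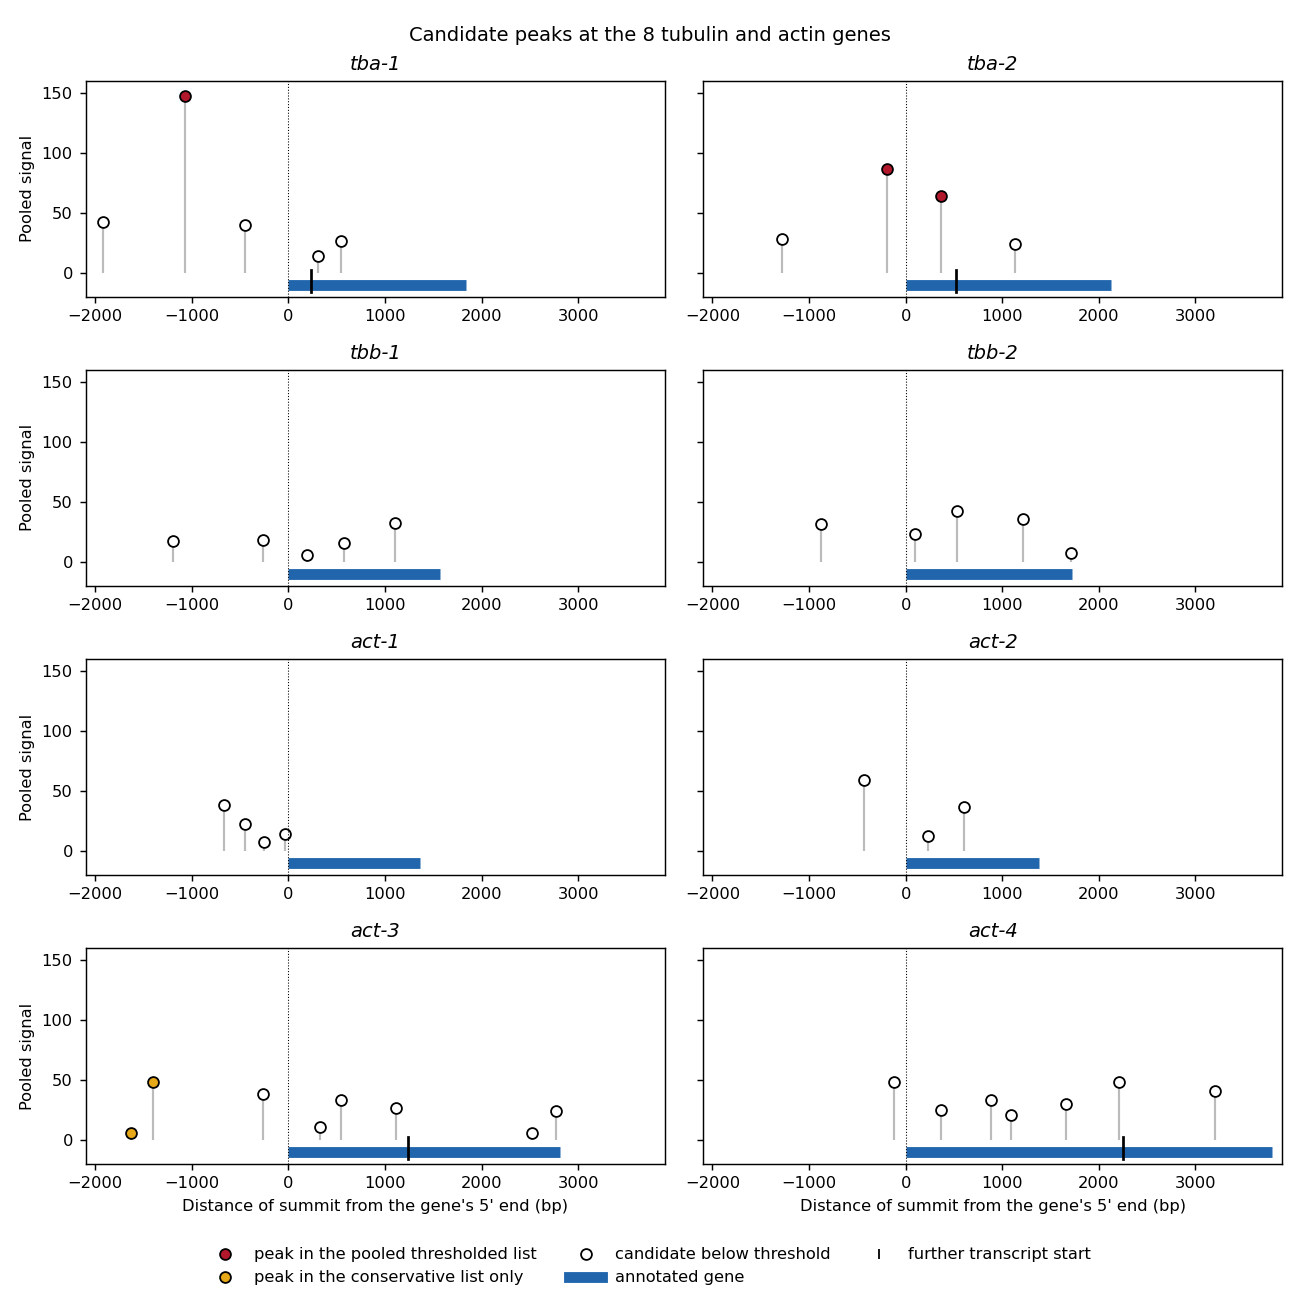
Pooled candidates at each gene, by distance of the summit from the gene's annotated 5′ end in bp (x axis) and by the authors' signal (y axis). Red points are peaks of the pooled thresholded list, yellow points are peaks of the conservative list only, open points are below the threshold, blue bars are the genes, and black ticks are further annotated transcript starts; the 3 red points, at 147.32 for *tba-1* and 86.43 and 64.4 for *tba-2*, are the 3 highest points of the 8 panels.

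The strongest region of the 8 genes was a single site upstream of *tba-1* (WBGene00006528, chrI:9785781-9787624, minus strand, ce11). The peak spanned chrI:9788551-9788840, and its summit lay 1072 bp upstream of the 5′ end of *tba-1*. Its pooled signal was 147.32, the authors' peak caller's own value, which was higher than 99.8% of all pooled candidates and stands beside a median of 79.9 over all pooled sites. Its IDR was 5.91e-05 and its score 1000, the highest the lists give. In replicate 1 the signal at this place was 88.98, at percentile 99.73 of that list, and in replicate 2 it was 54.04, at percentile 99.55. Both replicates therefore ranked it among their highest candidates, and both kept it in their own thresholded lists. The signals of different lists share no stated scale, so lists are compared here by percentile only.

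That site was much closer to another gene than to *tba-1*. Its summit was 29 bp upstream of the 5′ end of *cox-5B*, which encodes a subunit of cytochrome c oxidase and runs in the opposite direction to *tba-1*. The 2 genes are divergent, with 1100 bp between their 5′ ends, and the peak covered the *cox-5B* start. Assigning each site only to the gene with the nearest 5′ end gave this site to *cox-5B*, and *tba-1* then had none. The candidate nearest to the 5′ end of *tba-1* on its upstream side, at 450 bp, had a pooled signal of 39.63 and an IDR of 0.375, and was matched in replicate 1 alone. Within the gene, 2 candidates had pooled signals of 26.76 and 13.78, the second of them 77 bp downstream of the start of the shorter transcript F26E4.8a.1, which begins 234 bp inside the gene.

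*tba-2* (WBGene00006529, chrI:12964674-12966795, minus strand) was the single member with a pooled site in its window for which its own 5′ end was the nearest. It had 2 sites, one on either side of that end. The upstream site spanned chrI:12966843-12967132 with its summit 193 bp upstream, in the 420 bp between *tba-2* and the 3′ end of the proteasome subunit gene *pbs-2*. Its pooled signal was 86.43, at percentile 99.43, with an IDR of 0.000941. The replicates differed here: replicate 2 had a signal of 58.93 at percentile 99.61 and an IDR of 0.00109, while replicate 1 had 28.7 at percentile 95.4 and an IDR of 0.264. Replicate 2 alone thus kept the upstream site in its own thresholded list.

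The second *tba-2* site lay inside the gene, in an intron, at chrI:12966283-12966572 with the summit 367 bp downstream of the 5′ end. Its pooled signal was 64.4, at percentile 98.88. Its IDR of 0.00943 put it just inside the threshold of 0.01. Replicate 1 had a signal of 32.58 at percentile 97.16 with an IDR of 0.0926, and replicate 2 had 28.8 at percentile 97.41 with an IDR of 0.178. The replicates therefore ranked the intronic candidate alike, and neither kept it in its own thresholded list. *tba-2* has a second annotated transcript, C47B2.3.1, that begins 524 bp inside the gene, and the summit was 157 bp upstream of that start. The window rule also gave the upstream site to *eif-6*, 1958 bp away, and the intronic site to C47B2.2, 1849 bp away.

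**Figure D2:**
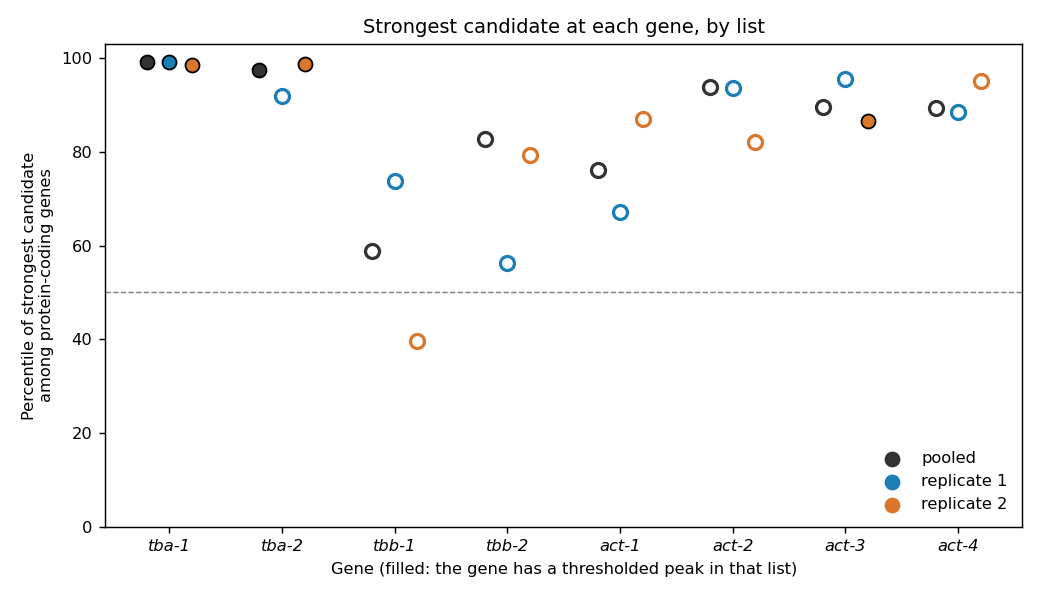
Percentile of the strongest candidate of each gene among all protein-coding genes with a candidate in the same list (y axis), for the 8 genes (x axis) in the pooled list, replicate 1 and replicate 2. Filled points mark genes with a thresholded peak in that list and the dashed line is the median gene; *tba-1* lies between 98.6 and 99.1 in the 3 lists, while *tbb-1* runs from 39.6 to 73.8.

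The strongest pooled candidates of the β-tubulin genes were lower than those of the α-tubulin genes. Apart from the site nearest to *cox-5B*, the highest candidate in the *tba-1* window was at 42.13, close to the strongest of *tbb-2*. Its summit, 1914 bp upstream of *tba-1*, lay within *cox-5B*, and its IDR was 0.595. The next highest, 450 bp upstream of *tba-1*, was at 39.63. At *tbb-2* (WBGene00006537, chrIII:4015910-4017627, minus strand) the strongest of 5 candidates had a pooled signal of 42.07 at percentile 95.19, and lay in a coding exon 533 bp from the 5′ end. It had an IDR of 0.552, with 19.43 at percentile 77.9 in replicate 1 and 16.71 at percentile 74.03 in replicate 2. At *tbb-1* (WBGene00006536, chrIII:10740868-10742432, minus strand) the strongest of 5 candidates had a pooled signal of 32.17 at percentile 85.51, and lay in a coding exon 1102 bp from the 5′ end. Its IDR was 0.163, with 22.96 at percentile 88.45 in replicate 1 and 12.1 at percentile 41.95 in replicate 2. Upstream of the 5′ ends, the candidates of *tbb-1* had pooled signals of 18.5 and 17.7 and that of *tbb-2* 31.3, against a median of 20.4 over all pooled candidates. The *tbb-1* candidate at 18.5 lay in the 377 bp between *tbb-1* and the divergent *rib-2*, and its peak covered the *rib-2* start. That at 17.7 lay within *rib-2*.

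The sequences around the strongest pooled summits of the β-tubulin genes are shown because both lie within the transcribed gene and not at its start. The *tbb-1* summit also lies within 1000 bp upstream of another protein-coding gene's 5′ end. Each runs from 50 bases before to 50 bases after the summit, from the RefSeq genome of WBcel235, on the strand of the gene, and capitals mark a match to a motif. The motifs searched, on both strands, were ACGCAG, the repeat GAGAGA that reads as TCTCTC on the other strand, the CpG-rich word ACGCGC, and its relative GCGCGC. The spans are chrIII:10741280-10741380 for *tbb-1* and chrIII:4017044-4017144 for *tbb-2*.
tbb-1: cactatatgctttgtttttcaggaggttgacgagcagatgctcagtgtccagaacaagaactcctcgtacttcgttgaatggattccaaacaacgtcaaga
tbb-2: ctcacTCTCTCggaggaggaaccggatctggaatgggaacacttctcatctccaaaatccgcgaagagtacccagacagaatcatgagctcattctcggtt
The *tbb-1* window held none of the motifs and the *tbb-2* window held 1 GAGAGA.

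Among the actins, *act-2* (WBGene00000064, chrV:11076777-11078154, minus strand) had the strongest candidate within its window. It spanned chrV:11078443-11078732, with the summit 434 bp upstream, in the 2897 bp between the divergent *act-2* and *act-1*. Its pooled signal was 58.72 at percentile 98.55, with 35.62 at percentile 97.84 in replicate 1 and 23.11 at percentile 93.04 in replicate 2. Its IDR of 0.0143 left it just outside the threshold, in the pooled list as in the conservative one, where it was 0.0164. The peak overlapped the annotated non-coding RNAs T04C12.18, T04C12.23 and T04C12.24. The remaining *act-2* candidates lay within the gene, with pooled signals of 36.96 and 12.43.

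*act-1* (WBGene00000063, chrV:11081052-11082415, plus strand) had 4 candidates, all with summits upstream and none with a summit in the gene itself. The one with its summit 34 bp upstream, at a pooled signal of 13.62, extended across the 5′ end into the gene. It was matched in replicate 2 alone, with 14.5 at percentile 60.7. The strongest of the 4, 665 bp upstream, had a pooled signal of 38.31 at percentile 92.87 and an IDR of 0.0577. It was matched in replicate 2, with a signal of 24.94 at percentile 95.14, and not in replicate 1. The neighbouring candidate at 449 bp, with a pooled signal of 22.17, was matched in replicate 1, with 21.41 at percentile 84.63, and not in replicate 2. Just 20% of the bases of the *act-1* gene lie in 36-base words found once in the genome, against 83.9% for *act-2*, 61.3% for *act-3* and 98.6% for *act-4*, while the 2000 bp upstream of each were 100% single-copy. How reads from repeated sequence were treated is not given in the sources used here, and its part in the absence of candidates within *act-1* was not tested.

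*act-3* (WBGene00000065, chrV:11071690-11074498, minus strand) was, beside *tba-2*, a member on which the lists disagreed. Its strongest candidate spanned chrV:11075750-11076039, with the summit 1397 bp upstream, between *act-3* and *act-2*, where it overlapped the non-coding RNAs T04C12.15 and T04C12.21. The pooled signal was 48.51 at percentile 97.34 in the pooled list. There its IDR was 0.77, far outside the threshold, while in the conservative list the same peak had an IDR of 0.00764 and was kept. An overlapping peak 1631 bp upstream, with a signal of 6.02 at percentile 7.19 of the pooled list, was kept in the conservative list as well, with an IDR of 0.00761. In replicate 1 the nearest summit lay 1514 bp upstream of *act-3*, with a signal of 41.27 at percentile 98.58 and an IDR of 0.0157. In replicate 2 it lay 1280 bp upstream, with a signal of 24.74 at percentile 94.93 and an IDR of 0.00654, and was a thresholded peak. The replicates' summits were 234 bp apart, each 117 bp from the pooled summit on opposite sides, and their peaks shared 33 bp. Both replicates therefore had a candidate near the pooled summit 1397 bp upstream, but not at the same place, and the cause was not tested. Near the 5′ end, a candidate 263 bp upstream had a pooled signal of 38.47 at percentile 92.98, with 21.89 at percentile 85.93 in replicate 1 and 15.54 at percentile 67.42 in replicate 2. The 5 candidates within *act-3* had pooled signals of 5.66 to 33.16, and the one at 27 lay 123 bp upstream of the start of the shorter transcript T04C12.4.1.

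**Figure D3:**
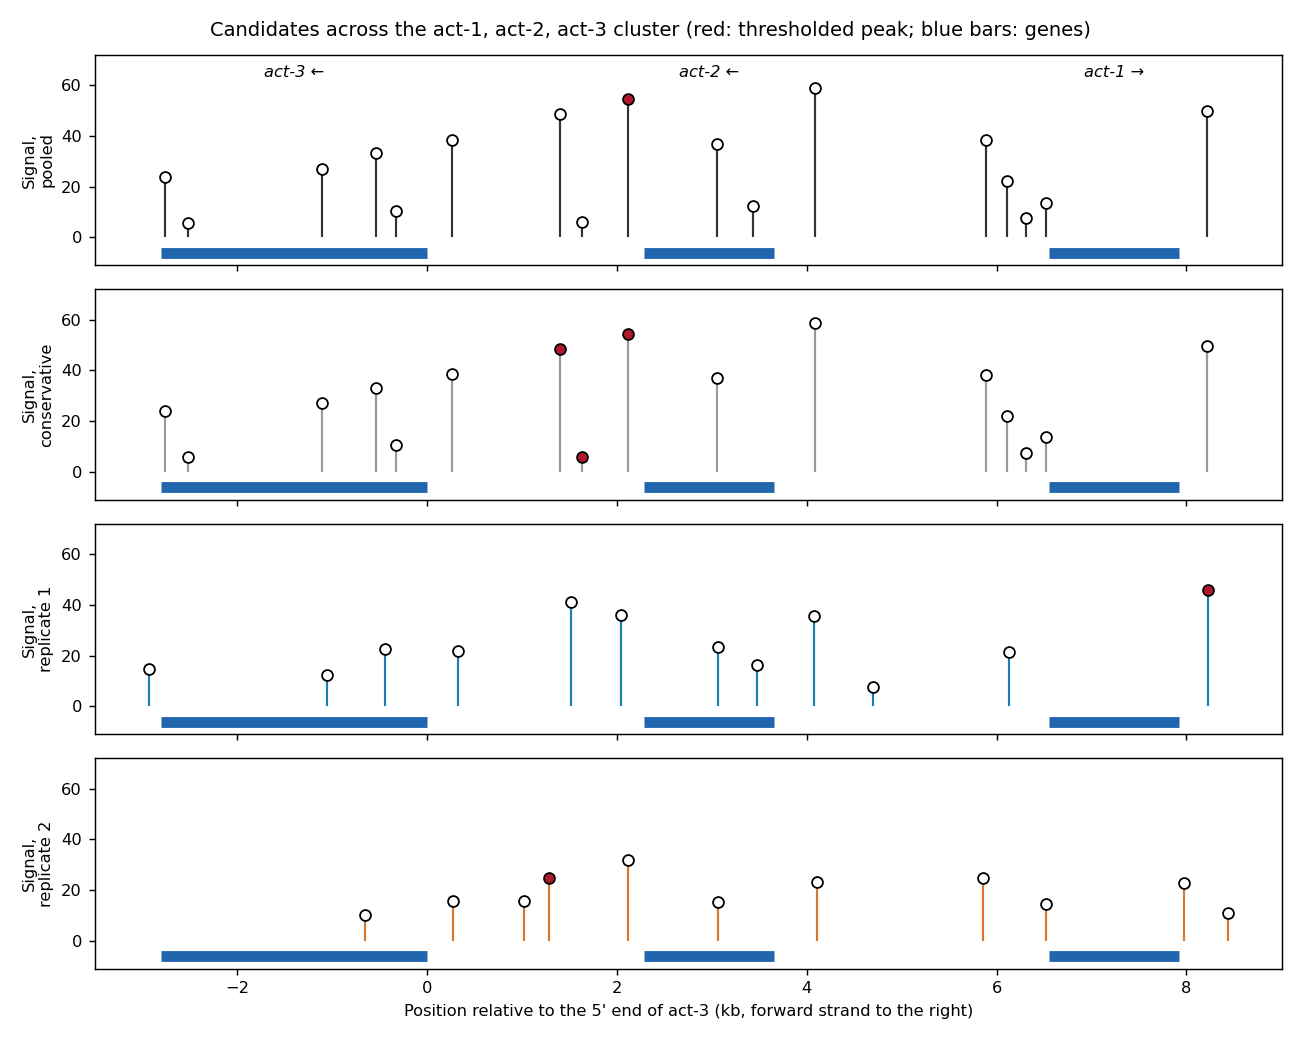
Candidates across the cluster of *act-3*, *act-2* and *act-1* in the 4 ranked lists, by position in kb relative to the 5′ end of *act-3* (x axis) and signal on each list's own scale (y axis). Red points are thresholded peaks and blue bars are the genes; the thresholded peak of signal 54.41 that lies 2113 bp upstream of *act-3* is red in both series-wide lists and in neither replicate.

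A further site of the pooled and conservative lists lay between *act-3* and *act-2* but outside every member's window. It spanned chrV:11076466-11076755, with a signal of 54.41 and a score of 1000, and its summit was 2113 bp upstream of *act-3*, 113 bp beyond the window. The same summit was 166 bp past the 3′ end of *act-2*, and the peak overlapped the non-coding RNA T04C12.14. Replicate 1 had 36.12 there, at percentile 97.97 with an IDR of 0.0331, and replicate 2 had 31.9, at percentile 98.25 with an IDR of 0.218. A peak of replicate 1's own list, with a signal of 45.85 and an IDR of 0.00933, lay 306 bp past the 3′ end of *act-1* at chrV:11082589-11082852. Of the 15 pooled candidates in the windows of the clustered actin genes, 5 overlapped an annotated non-coding RNA, and of all 41 member candidates 6 did, or 14.6%. The shares were 5.0% of all pooled candidates and 21.6% of pooled thresholded peaks.

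*act-4* (WBGene00000066, chrX:4960621-4964413, plus strand) had 7 pooled candidates, of which 6 lay within the gene. The strongest, with a pooled signal of 48.2 at percentile 97.29 and an IDR of 0.0765, was in a coding exon 2208 bp from the 5′ end, 46 bp upstream of the start of the shorter transcript M03F4.2b.1. Replicate 1 had 20.28 at percentile 81.0 and replicate 2 had 25.05 at percentile 95.25 at that place. A candidate 122 bp upstream of the 5′ end was almost as strong, with a pooled signal of 47.99 at percentile 97.24 and an IDR of 0.0211, or 0.0491 in the conservative list. It had 29.16 at percentile 95.68 in replicate 1 and 20.77 at percentile 88.83 in replicate 2. The replicates thus ordered these candidates differently: the upstream one was higher in replicate 1 and the one within the gene in replicate 2. Replicate 2's strongest candidate was another one, 3209 bp from the 5′ end, at 32.2 and percentile 98.32.

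The actin sequences are shown for the strongest pooled candidate of each gene, with the upstream one of *act-4* added, since none of these was a pooled site. They again run 50 bases to either side of the summit, on the strand of the gene, with the same motifs in capitals. The spans are chrV:11080337-11080437 for *act-1*, chrV:11078538-11078638 for *act-2*, chrV:11075845-11075945 for *act-3*, and chrX:4962779-4962879 and chrX:4960449-4960549 for *act-4*.
act-1: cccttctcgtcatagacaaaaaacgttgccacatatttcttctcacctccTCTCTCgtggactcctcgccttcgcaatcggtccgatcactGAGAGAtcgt
act-2: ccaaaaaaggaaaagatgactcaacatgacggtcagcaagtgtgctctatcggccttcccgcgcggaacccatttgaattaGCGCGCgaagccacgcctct
act-3: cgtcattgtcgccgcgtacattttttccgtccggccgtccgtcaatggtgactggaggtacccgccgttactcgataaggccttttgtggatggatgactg
act-4 in the gene: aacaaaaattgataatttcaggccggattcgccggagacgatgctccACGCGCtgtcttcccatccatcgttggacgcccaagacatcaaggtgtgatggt
act-4 upstream: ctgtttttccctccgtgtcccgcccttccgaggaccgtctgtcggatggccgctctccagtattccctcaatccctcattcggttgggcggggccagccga
The *act-1* window held 2 GAGAGA matches, the *act-2* window 1 GCGCGC and the *act-4* window within the gene 1 ACGCGC. Those of *act-3* and of *act-4* upstream held none of the motifs. For *act-3* this covers only the window at the pooled summit. The window at replicate 2's summit, 1280 bp upstream, held 1 ACGCGC, and that at replicate 1's summit, 1514 bp upstream, held none.

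The motifs are those that led among pooled sites in an earlier analysis of these data, so their frequency in sites is no separate result. GAGAGA was found in 22% of windows of all pooled sites and 6.95% of all pooled candidates, and in 7 of the 41 member windows. ACGCAG was in 17.2% and 3.07%, and in 1 of the 41. ACGCGC was in 12.5% and 2.13%, and in 3 of the 41, while GCGCGC, which can overlap it, was in 9.23% and 1.26%, and in 4 of the 41. The *tba-1* site held 2 ACGCGC matches, the upstream *tba-2* site 1 GAGAGA, and the intronic *tba-2* site 1 GAGAGA and 3 GCGCGC. At *tbb-1*, the candidate 264 bp upstream, with a pooled signal of 18.5, held 2 ACGCGC and 1 GCGCGC, so a match was also present at a low candidate. The median GC content of the windows was 46.5% for the members, 49.5% for sites and 39.6% for all candidates.

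**Figure D4:**
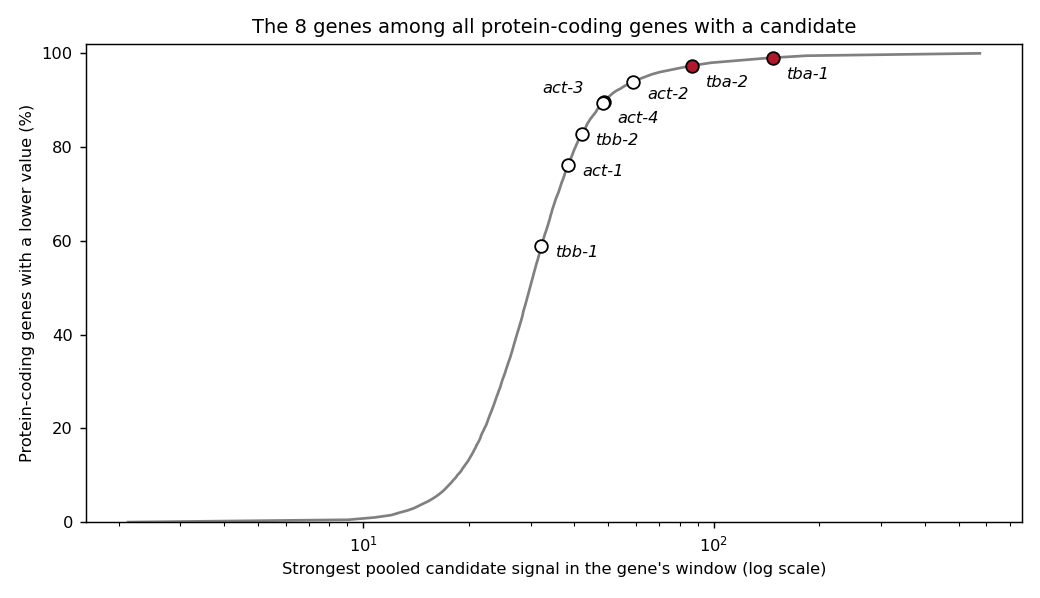
Cumulative distribution of the strongest pooled signal in the window of each protein-coding gene with a candidate (grey line; x axis, signal on a log scale; y axis, percent of genes with a lower value). Points are the 8 genes, filled where the gene had a pooled site; all lie above the median, from percentile 58.8 for *tbb-1* to 99.1 for *tba-1*.

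Ranked by their strongest pooled signal, the members were in the order *tba-1*, *tba-2*, *act-2*, *act-3*, *act-4*, *tbb-2*, *act-1* and *tbb-1*. Among the 16384 protein-coding genes with a candidate, *tba-1* ranked 151 and *tba-2* 428. *act-2* ranked 1011, *act-3* 1706, *act-4* 1735, *tbb-2* 2822, *act-1* 3903 and *tbb-1* 6754. The median of the 8 strongest pooled signals was 48.4, against 29.9 over all protein-coding genes with a candidate. Within replicate 1 the corresponding medians were 30.9 and 18.3, and within replicate 2 they were 24.8 and 16.8. The members had 3 to 8 pooled candidates each, and the median over all protein-coding genes was 3. A strongest value can rise with the number of candidates, and no adjustment was made for this. The order was not the same in the replicates. *tba-1* was highest in replicate 1 with 88.98 and *tba-2* in replicate 2 with 58.93, while *act-4* was at percentile 88.5 among genes in replicate 1 and 95.1 in replicate 2. *act-2*, at 93.6 and 82.0, and *act-3*, at 95.6 and 86.5, stood higher in replicate 1. *act-3* and *act-4* differed by less than 1 signal unit in the pooled list and changed places between the replicates, so their order is not resolved. Only *tba-1* was above percentile 98 among genes in both replicates.

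Of the 41 pooled candidates at the members, 15 had a summit within 100 bp in each replicate's ranked list, which is 36.6%, against 18.8% of all pooled candidates. A further 6 were matched in replicate 1 alone, 7 in replicate 2 alone and 13 in neither. The share matched in neither was 31.7% at the members and 31.7% over all candidates. Candidates were denser at the members, at 0.56 to 1.61 per kb in replicate 1 and 0.59 to 1.04 in replicate 2. Over the windows of all protein-coding genes there were 0.45 and 0.47 per kb. Denser candidates can match within 100 bp more often, and no adjustment was made for this. Of the 15 found in both, 9 stood at a higher percentile in replicate 1 and 6 in replicate 2. By position within their own gene's window, 17 candidates were upstream of the 5′ end, with pooled signals of 6.02 to 147.32 and a median of 38.31. There were 10 in coding exons, from 13.78 to 48.2 with a median of 29.47, 11 in introns, from 5.23 to 64.4 with a median of 27, and 3 in 3′ UTRs, from 5.66 to 23.92. With respect to any protein-coding gene, 39.0% of the member candidates lay within 1000 bp upstream of a 5′ end, against 17.6% of all candidates and 43.5% of pooled sites. The windows were drawn around 5′ ends, so this share partly follows from the choice of windows.

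The same window rule was applied to 100 genes of the tubulin and actin cytoskeleton, of which 99 were matched in the annotation. In the pooled list 12 of the 99 had a site, against 4.61% of all protein-coding genes. The count was 11 in the conservative list, against 4.39%. It was 7 in each replicate's own list, against 2.94% in replicate 1 and 2.22% in replicate 2. Among 12 other tubulin genes, *tbg-1*, which encodes the γ-tubulin that nucleates microtubules, had a site with a signal of 91.42 784 bp upstream, 53 bp from the 5′ end of *rpac-19*, and a second within the gene at 63.98, and the α-tubulin gene *tba-7* had an intronic site at 65.82. Of 16 genes for folding actin and tubulin, 3 had a site, all upstream: the chaperonin subunits *cct-8* at 275.21 and *cct-1* at 105.17, and the prefoldin subunit *pfd-1* at 98.27. All 3 summits were nearer to another gene's 5′ end. That of *cct-8* was 444 bp from its own and 177 bp from that of Y55F3AR.2, and that of *pfd-1* was 354 bp from its own and 255 bp from that of F01G4.6. The *cct-1* summit was 164 bp from the 5′ end of *mig-5*. Of 18 genes for microtubule motors, severing and associated proteins, 1 had a site, the CLASP gene *cls-2* at 215.62, 986 bp upstream and 272 bp from R107.5.

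Of 35 genes for actin dynamics and cross-linking, 6 had a site in the pooled list. These were the capping protein gene *cap-2* at 151.41, the WAVE gene *wve-1* at 143.36, the cofilin gene *unc-60* at 80.81 and 69.41, the profilin gene *pfn-2* at 70.98, the β-spectrin gene *unc-70* at 65.65 and the non-muscle myosin gene *nmy-2* at 62.97. The *nmy-2* summit was 1483 bp from its own 5′ end and 204 bp from that of T22C1.1, and the *wve-1* summit 664 bp from its own and 585 bp from that of R06C1.4. With each site given only to the nearest 5′ end, 5 of the 99 genes had a site, against 3.89% of all protein-coding genes. These were *unc-60*, *pfn-2*, *cap-2*, *tba-7* and *tbg-1*. The *unc-60* summits were as near to the 5′ end of F53E2.2, at 288 and 1081 bp, as to that of *unc-60*. The *cap-2* summit was 225 bp from its own 5′ end and 251 bp from that of *gmps-1*. The *unc-70* site lay in an intron 7701 bp from the 5′ end and was at the small RNA gene K11C4.6. *act-5*, the actin of intestinal microvilli, had no site, and its strongest candidate was at 15.2. None of 17 muscle filament partners of actin, such as myosin heavy chains, troponins and tropomyosin, had a site. With a site at 4.61% of all protein-coding genes, none among 17 is near that share. Their highest candidate was at 44.9, and 2 of the 17 had no candidate. Of the 99 genes, 4 had no candidate, and the median strongest signal was 36.9 over the others, against 48.4 for the 8 members and 29.9 for all protein-coding genes with a candidate.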

How the data were processed

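Both samples are anti-GFP ChIP-seq libraries from L4 larvae at 49 hours, in 1 group with 2 biological replicates, per the labels. The authors deposited 8 peak lists on ce11, per the labels. Each candidate's signal, as deposited, comes from the peak caller the authors used, and no source states its scaling. The score, deposited by the authors, runs up to 1000 and falls as the IDR rises. The IDR is deposited as −log10, and was converted to a plain IDR. From the values, the lowest score in the thresholded lists, 830, corresponds to an IDR of 0.01. Neither aligner nor caller is named (not given in the sources used here). With no read counts, depth is unknown and no interval was computed.

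Each replicate had a ranked and a thresholded list. The series had 2 further pairs, here called pooled (the main one) and conservative, and a thresholded list was paired with whichever ranked list contains it. Peaks overlapping by 1 bp or more were merged into sites. A gene had a site when a summit lay from 2000 bp upstream of its 5′ end to its 3′ end (Ensembl release 115 on WBcel235, which ce11 names). Candidates matched between lists when summits lay within 100 bp. Percentiles are the share of a list's candidates with a lower signal. Single-copy shares used 36-base words. Coordinates are 1-based. The members, gene lists and motifs were chosen with earlier results of these data known, and no test was made. All 8 members and every cytoskeletal gene with a pooled site were named. Scripts used Python 3.11.15, numpy 2.4.6 and pandas 2.3.3 and were tested on simulated lists.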

Additional observations from a re-analysis of the deposited data

How the results depend on the processing

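The count of members with a site depended on the list and the window. Leaving out a replicate gave 1 to 3 of the 8 genes, 7 to 7 of the cytoskeletal genes, and 2.22 to 2.94% of all protein-coding genes. A window of 500 bp either side of the 5′ end gave 1 member (*tba-2*), 6 cytoskeletal genes and 2.08% of protein-coding genes. A window of 1000 bp upstream to the 3′ end gave 1 member (*tba-2*), 11 cytoskeletal genes and 3.76% of protein-coding genes. Assignment to the nearest 5′ end gave 3.89% of protein-coding genes and 5 cytoskeletal genes. It also gave 2 members, *tba-2* and *act-2*, the latter through the site 166 bp past its 3′ end. Keeping the sites above the median signal gave 2.54% of protein-coding genes. Counting any overlap of a site gave 3 members, *act-3* being added, against 4.91% of protein-coding genes. Taking each member's strongest candidate only, the median percentile among all candidates was 97.31 in the pooled list and 95.03 to 96.42 in the replicates' own lists. Ranked among the strongest candidates of all protein-coding genes, the members' median percentile was 89.5 in the pooled list, 90.2 in replicate 1 and 86.7 in replicate 2. The highest score and unmerged peaks, the latter chosen after seeing the data, kept *tba-1* and *tba-2*. The shares of protein-coding genes were then 3.53% and 4.61%. No paired analysis was possible because there is 1 group. The lists without counts limit precision to agreement in rank between 2 replicates.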
